A study of Caenorhabditis elegans with 2 samples.

Results

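The genes described here encode the machinery that moves newly made secretory proteins into the endoplasmic reticulum (ER) and packs them into coated vesicles. They were chosen by symbol from the Ensembl annotation of the WBcel235 genome: every protein-coding gene whose symbol begins with sec-, trap-, spcs-, srpa-, pdi-, tmed-, copa-, copb-, copd-, cope-, copg- or copz-, with sar-1, tfg-1, ero-1, ire-1, xbp-1, pek-1 and atf-6. This rule gave 52 of the 19973 protein-coding genes on the nuclear chromosomes and used no measured value. The set was, however, chosen with earlier results of these data known, so its share of peaks is a description and not a blind comparison. The measurement was chromatin immunoprecipitation with sequencing (ChIP-seq) of the C04F5.9 protein in Caenorhabditis elegans, in 2 biological replicates of 1 group. The animals were hermaphrodite L1 larvae of strain OP525, which carries unc-119(tm4063) III and the transgene wgIs525, and they were starved after bleaching and collected 6 h after synchronization. The transgene supplies C04F5.9 with a C-terminal GFP and FLAG tag, the tagged protein was pulled down with an anti-GFP antibody, and whole larvae were used, so that the cells in which it bound cannot be told apart.

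A protein bound for secretion is recognised by the signal recognition particle as it leaves the ribosome and is passed through the Sec61 translocon into the ER. There, signal peptidase removes its signal peptide, the translocon-associated protein complex assists its entry, and protein disulfide isomerases and the oxidase Ero1 form its disulfide bonds. COPII coats, built from Sar1, Sec23, Sec24, Sec13 and Sec31, bud vesicles from ER exit sites, COPI coats return material from the Golgi, p24 proteins act as cargo receptors in both, and the exocyst tethers secretory vesicles at the plasma membrane. IRE-1, PEK-1 and ATF-6 sense unfolded protein in the ER, and XBP-1 is the transcription factor activated by IRE-1.

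The authors' lists of regions were read as deposited: 30000 regions for the combined replicates, 1205 in the authors' optimal list, 30000 for replicate 1 and 28005 for replicate 2. The combined and replicate lists hold peaks and background together, as the authors' input for measuring agreement between replicates, so that a region in them need not be enriched. Their −log10 q-values, as deposited, fall to 0.0269, 0.0519 and 0.0177, and a q-value of 0.05 or less was reached by 2320 combined regions (7.73%), 2170 in replicate 1 (7.23%) and 3123 in replicate 2 (11.2%). All 1205 optimal peaks were the 1205 combined regions of highest signal, so a region's optimal rank is also its combined rank. Rank 1 is the highest signal value of a list. Signal values are the authors' own, they are on a different scale in each list, and only ranks and signals within a list are compared. A gene was counted as having a peak when the summit of an optimal peak, its point of highest signal, lay within 500 bp of an annotated 5′ end of one of its transcripts. Distances are negative upstream of that end. Many C. elegans genes are trans-spliced, so that an annotated 5′ end can lie downstream of the place where transcription begins. The sequencing depth is unknown from these lists, and a peak is a position of enrichment, which says nothing of whether a gene's RNA changes.

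The summit sequences that the comparisons below turn on are given first, each as 101 bases of the WBcel235 (ce11) RefSeq genome, plus strand, 5′ to 3′, centred on an optimal summit. Capitals mark the 8-base words AGACGCAG, GCAAACAC or AAACGCGC, or their reverse complements, which were read from the optimal peaks that do not lie at these genes. The first 3 are the strongest member peaks, the next 2 hold the longest stretch shared by member summits, and the last 2 each hold 2 different words.
sec-24.1 (chrIV:11566300-11566400): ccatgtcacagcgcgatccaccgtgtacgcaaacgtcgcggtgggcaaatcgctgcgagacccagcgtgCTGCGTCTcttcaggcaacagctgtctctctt
copz-1 (chrII:10872696-10872796): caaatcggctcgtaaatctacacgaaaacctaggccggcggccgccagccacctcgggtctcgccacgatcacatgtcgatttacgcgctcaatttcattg
sec-61.G (chrV:10897319-10897419): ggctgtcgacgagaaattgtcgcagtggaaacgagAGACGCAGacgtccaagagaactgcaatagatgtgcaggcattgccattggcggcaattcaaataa
sec-61.B and trap-3 (chrIV:2389103-2389203): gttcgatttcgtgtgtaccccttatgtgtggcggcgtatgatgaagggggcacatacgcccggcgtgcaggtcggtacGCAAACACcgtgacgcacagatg
spcs-2 (chrIII:12874856-12874956): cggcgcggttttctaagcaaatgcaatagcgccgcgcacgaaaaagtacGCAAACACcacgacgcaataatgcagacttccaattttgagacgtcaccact
sec-3 (chrX:3099964-3100064): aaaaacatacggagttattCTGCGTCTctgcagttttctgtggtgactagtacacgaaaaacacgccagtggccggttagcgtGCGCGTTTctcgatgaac
trap-2 (chrX:768234-768334): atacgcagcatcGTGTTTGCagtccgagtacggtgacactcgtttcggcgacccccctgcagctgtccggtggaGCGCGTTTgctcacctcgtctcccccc

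Of the 52 genes, 17 had an optimal peak (32.7%), compared with 1101 of all 19973 protein-coding genes (5.51%). They included sec-61.A, sec-61.B, sec-61.G, trap-2, trap-3, spcs-2, pdi-6, sec-12, sec-24.1, sar-1, copa-1, copb-2, copz-1, sec-3, sec-5 and sec-15. Peaks lay at all 3 genes of the entry channel, at 3 of the 9 COPII genes and at 3 of the 7 COPI genes. None lay at the 4 unfolded protein response genes or the 6 p24 genes. Groups this small cannot tell 0 from the 5.51% share of all genes. That absence also depends on the list: the top regions of replicate 2 alone gave 1 gene in each of these groups. The region at ire-1, at rank 1254, had the same −log10 q of 2.93 as the optimal peaks. In the longer combined list, 43 of the 52 (82.7%) had a summit within 500 bp, compared with 37.8% of all genes, although that list includes background. The count of 17 fell to 11 (21.2%) with a 250 bp window, where the share of all genes was 3.71%. It was also 11 (21.2%) with the 602 strongest optimal peaks alone, compared with 3.08% of all genes. When a peak was given only to its nearest gene, 12 members (23.1%) kept one, compared with 4.04% of all genes.

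**Figure D1:**
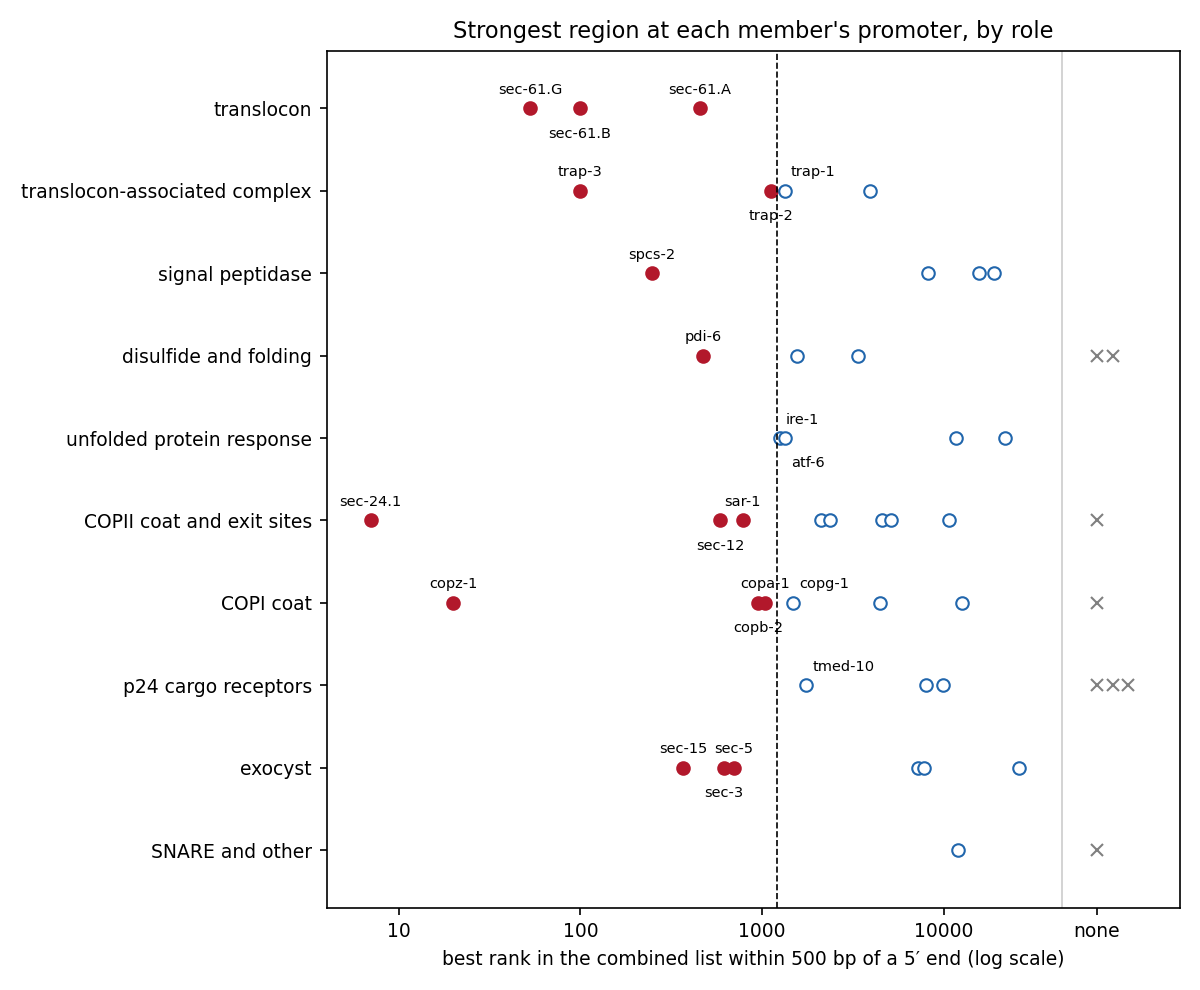
Best rank in the combined list (log axis) of any region with its summit within 500 bp of a 5′ end, for 50 of the 52 genes by role. Filled points are 16 genes with an optimal peak, left of the dashed line at rank 1205, open points are weaker regions and crosses are genes with no region. All 3 translocon genes lie left of the line and no unfolded protein response or p24 gene does.

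The translocon was the one role group with a peak at every member, 3 of 3. This count was 2 of 3 with a 250 bp window, and also when a peak was given only to its nearest gene. At sec-61.G, which encodes the small gamma subunit of the channel, the peak (chrV:10897271-10897466) ranked 53 of 1205 with a signal of 392.7. It ranked 56 in replicate 1, with a signal of 256.0, and 53 in replicate 2, with a signal of 134.0. Its summit lay 226 bp upstream of the 5′ end, and the neighbouring gene F32D8.7 starts 1291 bp away on the other strand. A single peak (chrIV:2389044-2389237) served both sec-61.B, the beta subunit, and trap-3, a subunit of the translocon-associated complex, which are divergent genes with 769 bp between their 5′ ends. This peak ranked 99 with a signal of 292.4, and ranked 89 in replicate 1 (signal 206.8) and 147 in replicate 2 (signal 85.1). Its summit was 478 bp from sec-61.B and 292 bp from trap-3, and lay within the annotated non-coding RNA gene Y38F2AR.17, so with a 250 bp window neither gene had a peak. At sec-61.A, which encodes the pore-forming alpha subunit, the peak (chrIV:14824948-14825331) ranked 456 with a signal of 134.4. It ranked 457 in replicate 1, with a signal of 87.7, and also 457 in replicate 2, with a signal of 48.4. It was the one member peak with its summit downstream of the member's own nearest 5′ end, 124 bp inside the gene's own 5′ UTR.

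No combined region lay within 500 bp of srpa-72, which encodes a protein subunit of the signal recognition particle. Replicate 2 alone listed a region within that distance, at rank 3479.

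Among the other translocon-associated genes, trap-2 (chrX:768092-768475) had the weakest member peak, at rank 1126 with a signal of 75.5, near the lowest optimal signal of 72.2. It ranked 921 in replicate 1, with a signal of 57.2, and 1756 in replicate 2, with a signal of 21.7. The summit lay 215 bp upstream of trap-2 and 312 bp upstream of ile-2, a divergent neighbour that encodes a lectin of the early secretory pathway. The best region at trap-1 ranked 1332 with a signal of 68.1, just past the end of the optimal list, and that at trap-4 ranked 3927. Of the 4 signal peptidase genes only spcs-2 had a peak (chrIII:12874714-12875097), at rank 247 with a signal of 187.7. Its replicate ranks were 251 (signal 122.5) and 272 (signal 64.8). Its summit lay 125 bp upstream of spcs-2 and 250 bp upstream of mrg-1, a chromodomain gene on the other strand. The best regions at sec-11, the catalytic subunit, and at spcs-3 and spcs-1 ranked 8241, 15771 and 18855. An optimal peak of rank 113, with a signal of 274.7, lay 1032 bp upstream of spcs-3, with no protein-coding 5′ end within 500 bp of it.

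Of the 5 disulfide and folding genes, pdi-6 alone had a peak (chrX:7068389-7068772), at rank 476 with a signal of 130.8. Its replicate ranks were 518 (signal 80.8) and 493 (signal 46.7), and its summit lay 18 bp upstream of the 5′ end, the closest of the set. The best regions at pdi-2 and pdi-1 ranked 1557 and 3374 in the combined list. Neither ero-1 nor pdi-3 had a combined region within 500 bp. At pdi-3 an optimal peak of rank 64, with a signal of 363.9, had its summit 647 bp upstream, and no protein-coding gene had its 5′ end within 500 bp of that summit. The summit lay in an annotated non-coding gene. The divergent neighbour ubql-1 starts 1174 bp from pdi-3, so the summit lay nearer to ubql-1 than to pdi-3.

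Among the 9 COPII genes, those with a peak were sec-24.1, sec-12 and sar-1, which encode a cargo-binding coat subunit, the exchange factor for the coat GTPase, and that GTPase. The peak at sec-24.1 (chrIV:11565943-11566721) was the strongest of the set, ranked 7 in the optimal list and 7 in each replicate. Its signal was 14869 in the optimal list, 10086 in replicate 1 and 4798 in replicate 2. Its summit lay 156 bp upstream of sec-24.1, and no other protein-coding gene had a 5′ end within 500 bp, although the annotated non-coding RNA genes F12F6.13 and F12F6.14 overlap the summit. This peak held 83.2% of the summed signal of the 16 peaks at these genes, which together held 5.01% of the signal of the optimal list. The paralogue sec-24.2 had no combined region within 500 bp, and its one region in a replicate list ranked 16706 in replicate 1.

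At sec-12 the peak (chrI:8511283-8511666) ranked 588 with a signal of 116.3, and its summit lay 160 bp upstream. It ranked 613 (signal 73.7) and 732 (signal 36.5) in replicates 1 and 2. At sar-1 (chrIV:4513526-4513909) the peak ranked 782 with a signal of 97.0, and its summit lay 399 bp upstream. It ranked 607 (signal 74.1) in replicate 1 but 1506 (signal 23.7) in replicate 2. The coat subunit genes sec-23 and sec-31, the exit site scaffolds sec-16A.1 and sec-16A.2, and tfg-1 had best ranks between 2125 and 10740. At sec-23 the replicates differed, with rank 13043 in replicate 1 and 1328 in replicate 2.

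Of the 7 COPI genes, copz-1, copb-2 and copa-1 had a peak. At copz-1, the zeta subunit, the peak (chrII:10872553-10872888) ranked 20 with a signal of 879.4. It ranked 21 in replicate 1, with a signal of 538.7, and 17 in replicate 2, with a signal of 336.3. Its summit lay between divergent genes, 133 bp from copz-1 and 135 bp from cyn-4, a cyclophilin gene. The peaks at copb-2 (chrIV:9459215-9459598) and copa-1 (chrI:2900937-2901320), for the beta-prime and alpha subunits, were much weaker, at ranks 951 and 1036. At copb-2 the signal was 84.2, with rank 1277 (signal 46.6) in replicate 1 and 705 (signal 37.4) in replicate 2. Its summit lay 324 bp upstream, within the annotated non-coding RNA gene F38E11.25. At copa-1 the signal was 79.9, with rank 1372 (signal 45.0) in replicate 1 and 800 (signal 34.5) in replicate 2. Its summit was 269 bp upstream of copa-1 and 196 bp upstream of gst-43, a glutathione S-transferase gene. Of the remaining subunits, copg-1 had a region at rank 1490, cope-1 at 4450 and copb-1 at 12649, and copd-1 had none within 500 bp.

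**Figure D2:**
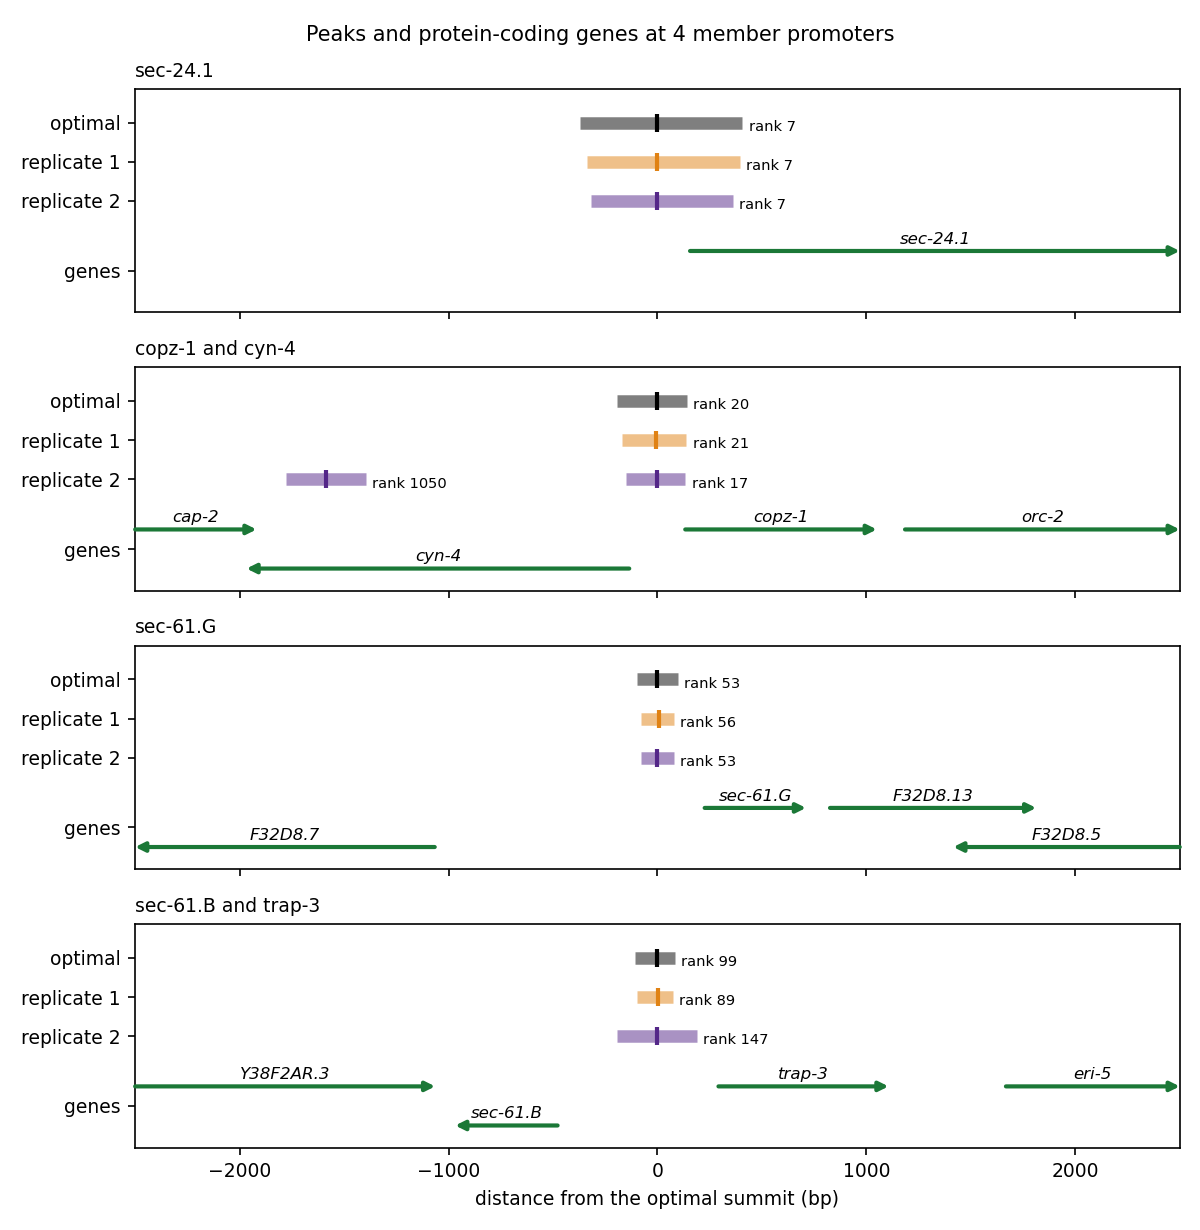
Optimal peaks and the top 1205 regions of replicate 1 and replicate 2 (bars, with summits as ticks) and protein-coding genes (arrows, cut at the panel edge) at the 4 strongest peaks of the set, against distance from the optimal summit in bp. Each panel is oriented so that sec-24.1, copz-1, sec-61.G or trap-3 is read to the right, and at each of these loci both replicates have a region at the same place, at ranks from 7 to 147.

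The exocyst genes sec-15, sec-3 and sec-5 had a peak and sec-6, sec-8 and sec-10 did not. At sec-15 the peak (chrX:8835825-8836208) ranked 369 with a signal of 149.3, and ranked 373 (signal 97.8) and 370 (signal 54.1) in the replicates. Its summit was 302 bp from sec-15 and 1 bp inside the 5′ UTR of the divergent gene C28G1.2. At sec-3 (chrX:3099822-3100205) the peak ranked 614 with a signal of 113.7, and ranked 661 (signal 70.8) and 665 (signal 38.8) in the replicates, with its summit 162 bp upstream. At sec-5 (chrII:9177080-9177463) it ranked 701 with a signal of 104.7, and its replicate ranks were the farthest apart, as a ratio, of the 16 peaks, 569 (signal 76.6) and 1907 (signal 20.7). The sec-5 summit lay 120 bp from sec-5 and 28 bp from its divergent neighbour pir-1, an RNA phosphatase gene. The best regions at sec-6, sec-8 and sec-10 ranked 7213, 7788 and 25916.

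The 4 unfolded protein response genes had regions but no optimal peak. The region at ire-1 ranked 1254, with a signal of 70.6, and was the nearest of all members to the end of the optimal list. Its replicate ranks were 2010 and 1036. At atf-6 the region ranked 1334 with a signal of 68.0, and ranked 1552 and 1519 in the replicates. The regions at xbp-1 and pek-1 ranked 11729 and 21926. Of the 6 p24 genes, tmed-10 had a region at rank 1759, but at rank 8024 in replicate 1 and 910 in replicate 2. The regions at tmed-4 and tmed-3 ranked 8003 and 9988, and tmed-1, tmed-12 and tmed-13 had none within 500 bp. An optimal peak of rank 1039, with a signal of 79.8, lay 867 bp upstream of tmed-1, at the divergent gene lex-1. Of the SNARE genes, sec-22 had a region at rank 12044 and sec-20 had none.

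The replicate ranks of 10 of the 16 distinct member peaks lay within 1.5 times of each other. Of the 16 distinct peaks, 14 overlapped a region among the top 1205 of replicate 1 and 13 among the top 1205 of replicate 2, with 11 among both. The 5 that were in the top 1205 of one replicate alone were those at sec-5, sar-1, trap-2, copb-2 and copa-1, all among the weakest 5 of the 16. The optimal list is built from both replicates, so that agreement of its peaks between them is part of how they were chosen. The same shares over all 1205 optimal peaks were not counted, so this agreement cannot be called particular to the members. Counted from each replicate alone, with its top 1205 regions, 16 members had a peak in replicate 1 (5.33% of all genes did) and 17 in replicate 2 (5.51% of all genes). Of these, 12 had one in both replicates and 21 in either. The share of all genes with a peak in both or in either was not counted, so these counts have no background here.

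**Figure D3:**
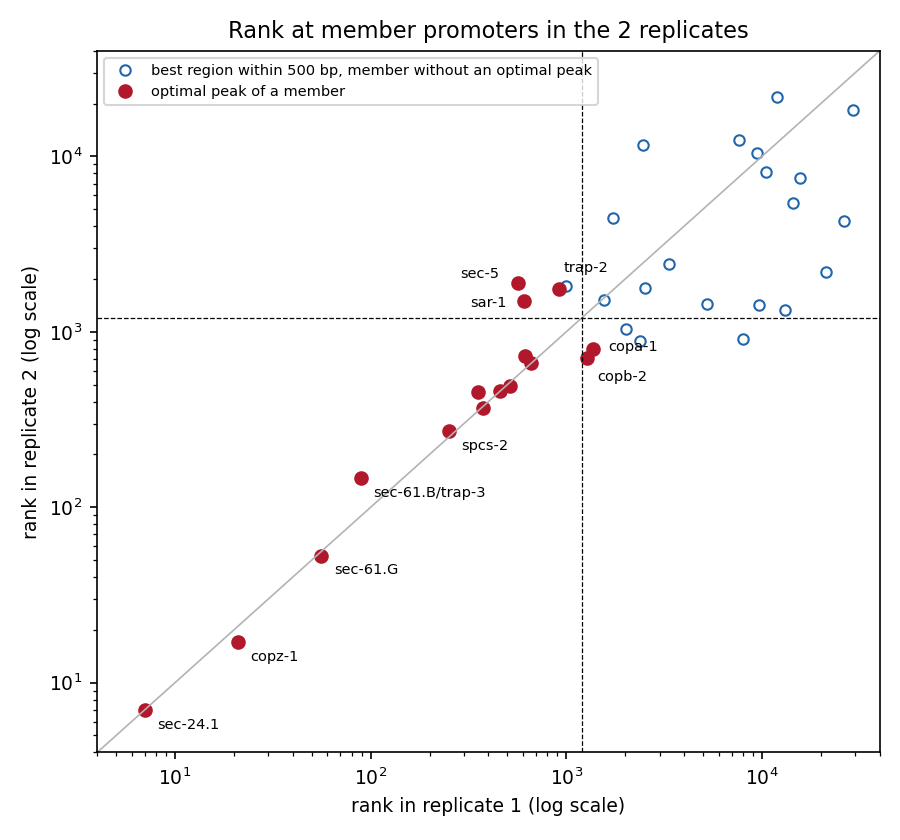
Rank of member regions in replicate 1 (x) and replicate 2 (y), both on log axes, with the grey line at equal rank and dashed lines at 1205. Filled points are the 16 optimal peaks and open points are members without one that have a region within 500 bp in both replicate lists. The strongest peaks lie along the line, and sec-5, sar-1, trap-2, copb-2 and copa-1 lie outside one of the dashed lines.

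Summits lay close upstream of the genes. Of the 17 members with a peak, 16 had it upstream of their own nearest 5′ end, compared with 92.3% of all genes with an optimal peak. The median distance was -162 bp, compared with -175 bp. The replicate summits shifted from the optimal summit by a median of 10.5 bp in replicate 1 and 3.5 bp in replicate 2. The peak was shared with at least 1 other protein-coding gene in 9 of 17 (52.9%), close to the share among all genes with a peak (53.7%). The upstream neighbour lay on the other strand for 13 of the 17 (76.5%), compared with 70.4% of all genes with a peak and 42.2% of all genes. This arrangement was also common over all 52 members (61.5%) and over the 35 members without a peak (54.3%). The 16 peaks had a median signal of 132.6 and a median rank of 466, against a median signal of 114.9 over the optimal list, and 10 of them were among its 602 strongest.

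**Figure D4:**
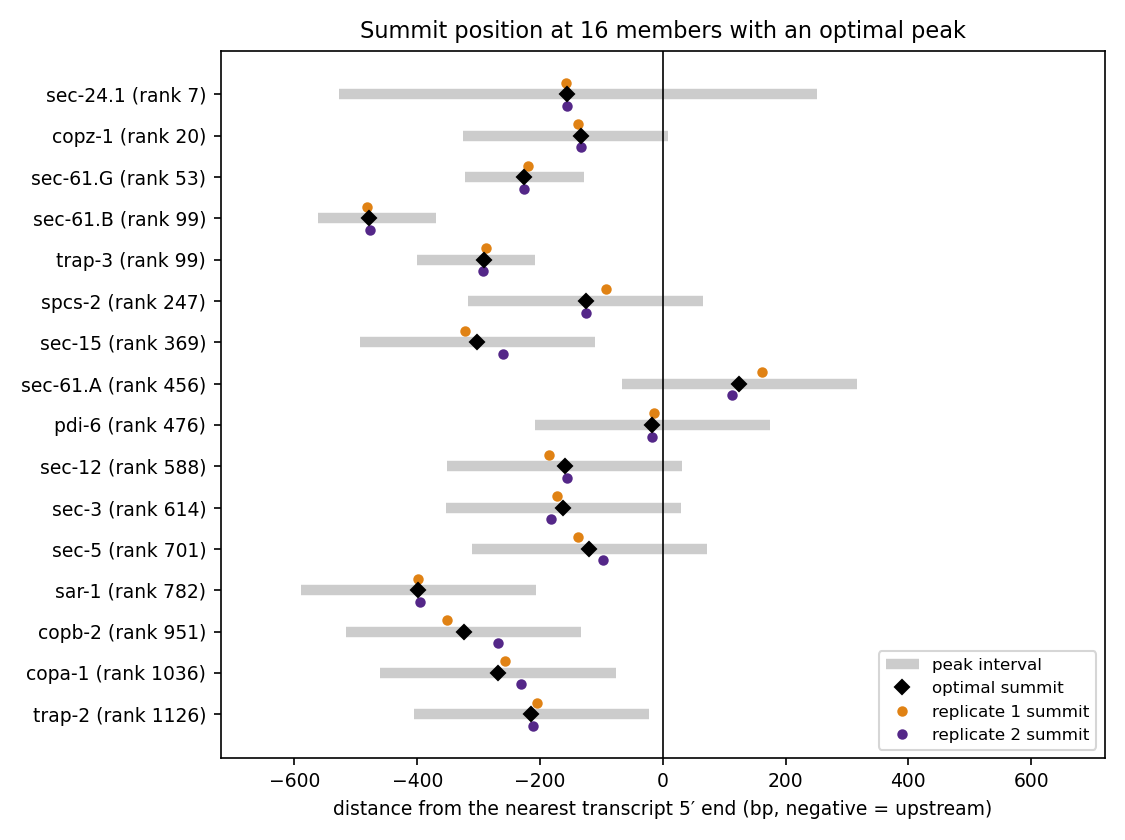
Distance in bp of the optimal summit (diamond) and of each replicate's summit (circles) from the member's own nearest transcript 5′ end, for 16 of the 17 members with an optimal peak, in order of rank. Grey bars are the optimal peak intervals, and all summits except that of sec-61.A lie left of 0, which is upstream.

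Of the 26 members with a combined region but no optimal peak, 7 had their best region at a q-value of 0.05 or less: ire-1, trap-1, atf-6, copg-1, pdi-2, tmed-10 and sec-16A.1. The other 19, from sec-23 at −log10 q of 1.27 down to sec-10 at 0.0343, did not reach it, and their ranks are positions in a list that includes background. The share of all genes that meets this q-value rule was not counted. Between ranks 1206 and 2500 lay the best region of 8 members (15.4%), compared with 3.84% of all genes, and between 2501 and 5000 that of 4 (7.69%), compared with 4.51%. Between 5001 and 10000 there were 6 (11.5%, against 6.52%) and beyond 10000 there were 8 (15.4%, against 17.4%). No combined region was present at 9 members (17.3%), compared with 62.2% of all genes: sec-20, sec-24.2, ero-1, pdi-3, copd-1, srpa-72, tmed-1, tmed-12 and tmed-13. The median best rank was 1557 over the 43 members with a region, 6164.5 over the 26 without an optimal peak, and 8734 over the 7544 genes with a region.

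**Figure D5:**
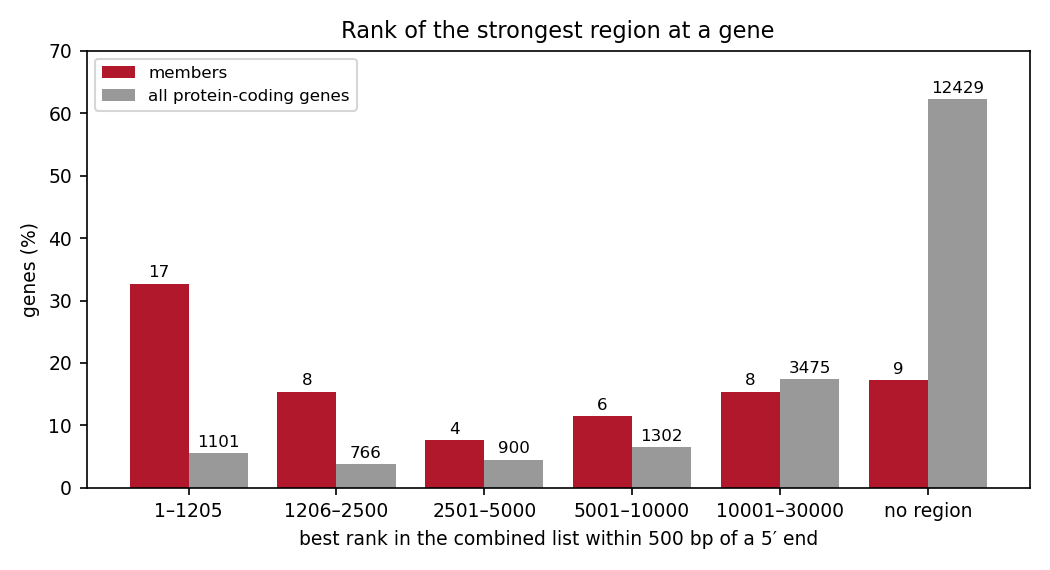
Percentage of the 52 members (red) and of all 19973 protein-coding genes (grey) whose best combined region within 500 bp of a 5′ end falls in each range of ranks, with gene numbers above the bars. The members' bars are higher than those of all genes in the first 4 ranges, and the largest gap is in the group with no region, 17.3% against 62.2%.

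Several members without a peak lie behind another gene on the same strand, as genes of C. elegans operons do. The end of a same-strand gene lay within 500 bp upstream of 25% of the 52 members and 17.7% of all genes. Among those with an optimal peak the shares were alike, 11.8% of members and 11.7% of all genes. Of the 35 members without an optimal peak, 11 (31.4%) had such a gene upstream. An optimal peak was present at that upstream gene in 2 of the 11 (18.2%), compared with 10.4% of all such genes without a peak of their own. They were sec-11, behind the RNA polymerase subunit gene rpb-7 (peak rank 676), and sec-6, behind bmy-1 (peak rank 482). The strongest optimal peak within 2000 bp of a member without one of its own, at rank 4 with a signal of 22458, lay 1681 bp upstream of copb-1, at its divergent neighbour Y25C1A.8. Whether these neighbouring genes are transcribed together was not tested.

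The member summits were richer in G and C than their surroundings. The 101 bases around the summit had a median GC content of 49.5% over the 16 peaks (27.7 to 63.4%), compared with 47.5% over all optimal peaks. Sequence 200 to 250 bp away on both sides had a median of 31.4%, compared with 35.3% over all optimal peaks. GC was higher at the summit than in this flanking sequence in 15 of 16 (93.8%), compared with 84.4% of all optimal peaks. The exception was sec-61.A, whose summit was also the lowest at 27.7%.

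The 4 words that led the summits of the other 1189 optimal peaks were AGACGCAG, GCAAACAC, AAACGCGC and GCGCCAGC, searched on both strands, with no 2 sharing more than 4 bases. Each was chosen for its excess at summits over flanks, so their share of all optimal peaks is part of that choice. AGACGCAG was within 50 bp of the summit in 3 of the 16 member peaks (18.8%; sec-24.1, sec-61.G and sec-3), compared with 9.38% of optimal peaks and 1.28% of the weaker combined regions. GCAAACAC was in 4 (25%), at sec-61.B and trap-3, spcs-2, copa-1 and trap-2, compared with 6.97% and 0.747%. AAACGCGC was in 2 (12.5%, sec-3 and trap-2), compared with 6.56% and 0.434%, and GCGCCAGC was in 1 (6.25%, sar-1), compared with 5.39% and 0.191%. At least 1 of the words was in 8 of 16 member peaks (50%, exact 95% binomial interval 24.7 to 75.3%), compared with 25.3% of optimal peaks. The interval includes 25.3%. It treats the peaks as independent draws, although they are not replicates. Within 100 bp of the summit the shares were 50% and 31.7%. Within 25 bp of the summit they were 12.5% and 15.9%, the reverse order.

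In the promoters, taken as 250 bases before to 50 after a 5′ end, AGACGCAG occurred at 5 of 52 members (9.62%) and 3.54% of all genes, and GCAAACAC at 6 (11.5%) and 2.4%. AAACGCGC occurred at 3 (5.77%) and 1.44%, and GCGCCAGC at none and 0.581%. These promoters overlap summit windows counted above, and the words were chosen at optimal summits, which members had more often than all genes. The promoter shares are therefore not independent of the summit counts. The peak of sec-61.B and trap-3 and the peak of spcs-2, on different chromosomes, share the 13-base stretch GTACGCAAACACC, and those of sec-61.G and sec-3 share AGAGACGCAGA in opposite orientation. The copz-1 window holds none of the 4 words, although its peak ranks 20. A match is a description of the letters in these windows and says nothing of which protein reads them.

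A further list of related genes, chosen by symbol, held ER chaperones, glycosylation and degradation factors and trafficking proteins, and 39 of its 43 symbols were in the annotation. Some of these genes had been seen in earlier results of these data, so the shares below are not independent of that choice. Of the 39, 9 had an optimal peak (23.1%, against 5.51% of all genes) and 26 had a combined region (66.7%, against 37.8%). The strongest was at cdc-48.1, which encodes an ATPase that extracts proteins from the ER for degradation, at rank 24 with a signal of 683.8 and at ranks 23 and 24 in the replicates. Among chaperone genes, the BiP gene hsp-3 had a peak at rank 180 (signal 219.7), the calreticulin gene crt-1 at 440 (signal 136.6), and the GRP94 gene enpl-1 at 491 (signal 128.8). Of the glycosylation genes, dad-1, an oligosaccharyltransferase subunit, had a peak at rank 214 (signal 204.0) and uggt-1, a glucosyltransferase that reads glycoprotein folding, at 678 (signal 106.3). Of the trafficking genes, the cargo lectin gene ile-1 had a peak at rank 105 (signal 280.7), and the SNARE genes syx-5 and use-1 at 262 (signal 183.2) and 853 (signal 91.1). The BiP genes hsp-3 and hsp-4 differed: the hsp-3 summit lay 11 bp upstream of its 5′ end, and the best region at hsp-4 ranked 20035. The best region at cdc-48.2, the paralogue of cdc-48.1, ranked 14542. Of the 9, dad-1, syx-5, enpl-1 and use-1 share their peak with tre-1, F55A11.1, imp-2 and pas-3.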

How the data were processed

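ChIP-seq of C04F5.9 was analysed from 4 lists of regions on ce11 (WBcel235). The combined and 2 replicate lists hold peaks and background, as input for the irreproducible discovery rate, and the optimal list is thresholded by that rate, per the names of the deposited files. The replicates are labelled as biological replicates of 1 group, so there was no contrast between conditions and no test. Column 7 of the deposited lists was read as the signal value and ranked within each list. The deposited −log10 q-value was constant at 2.93 over the optimal list, fell to 0.0269 in the combined list and ranked nothing, and the authors' summit offset gave the summit. Aligner, peak caller and the optimal list's threshold: not given in the sources used here. The depth is unknown. No per-sample column was left unmapped (0).

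Summits were assigned to protein-coding genes of Ensembl release 115, with all transcript 5′ ends, within 500 bp. The members with an optimal summit within 500 bp were described in full, except 1 that counts in the totals and is not reported here, with the members nearest to and farthest from that list, and those with no region. The members and lists were chosen with earlier results of these data known. Words were counted in the RefSeq WBcel235 genome. The binomial interval covers counting error only. The nearest-summit distance and the word search were tested on simulated data, and the counting of genes within a window was not. The alternatives tried were windows of 250 and 1000 bp, the 602 strongest peaks, nearest genes only, peak intervals, outermost 5′ ends, each replicate list alone, and summit windows of 25 and 100 bp. Python 3.11.15, numpy 2.4.6, pandas 2.3.3, scipy 1.17.1 and matplotlib 3.10.9 were used.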

Additional observations from a re-analysis of the deposited data

How the results depend on the processing

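Of 110 recomputed values, 94 stayed within 1.5 times the reported count, or within the spread for distances and shares, and 16 moved. The spread was the SD of the 2 replicate medians (2.83 bp) for distances and the binomial interval for shares. Many values are counts in role groups of 2 to 9 genes, all within the same 52. A fall from 3 to 2, or from 17 to 12 members, counted as unmoved, so the 94 is not a measure of robustness. With a 250 bp window, 11 members had a peak, and COPI and the translocon-associated complex had 1 each. With the 602 strongest peaks, 11 members had a peak, and COPI, the exocyst and the translocon-associated complex had 1 each. With only the nearest gene of each peak, the exocyst had 1 and the signal recognition particle 0. With a 1000 bp window, disulfide and folding had 2 and p24 had 1. Leaving out a replicate gave 16 to 17 members, 0 to 1 for p24 and 0 to 1 for the unfolded protein response. Distances were recomputed for the 17 members with an optimal peak, from their best region in each full replicate list. The median was -186 bp in replicate 1 and -182 bp in replicate 2, against -162 bp. Words within 25 bp of the summit were in 12.5% of member peaks. Over all alternatives the members with a peak numbered 11 to 19, with 3.08 to 6.89% of all genes. The cause of these moves was not tested, beyond the fewer peaks or shorter windows that the settings themselves bring. No paired analysis was possible because there is 1 group and no test.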
